A study of Mus musculus with 9 samples.

Results

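Some genomic stretches that the control library marks as 1 continuous region of 5-hydroxymethylcytosine (5hmC) are marked in the MLL-AF9 library by several separate regions. A control region was taken as split when it lay on an autosome and overlapped 2 or more separate MLL-AF9 regions by at least 1 bp. Control regions of 1200 bp or more that overlapped an MLL-AF9 region of 1200 bp or more were left out. The rule took 3162 of the 51145 autosomal control regions, or 6.18% (95% Wilson interval 5.98 to 6.39), out of 51286 control regions in all. The members were chosen by the positions and widths of the regions in both lists, so this count, the widths and the overlaps describe what was chosen and are not tests. The separate MLL-AF9 regions that overlap a split control region are called its pieces below.

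The cells were mouse bone marrow mononuclear cells of the strain B6.SJL (CD45.1). The control cells had received the empty retroviral vectors MSCVneo and MSCVpuro, and the MLL-AF9 cells received MSCVneo-MLL-AF9 together with the same MSCVpuro, so both groups carry MSCVpuro. MLL-AF9 joins the histone methyltransferase MLL to AF9 and drives acute leukemia, and here it was expressed from a retrovirus and not from its own locus. DNA enriched for 5hmC was sequenced from 1 library of each group and polyA RNA from 3 libraries of each, and the 1 input library, from control cells, was left out. The labels give neither the age of the animals nor whether libraries come from separate animals. With 1 5hmC library per group there is no spread between replicates and no test between the groups, and Wilson intervals cover counting error only.

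5hmC is made when TET dioxygenases oxidise 5-methylcytosine, the methylated base that marks much of the mammalian genome. It can be oxidised further and replaced by unmodified cytosine, and it can also persist as a stable mark. In blood cells it is found in the bodies of active genes and at enhancers, and it is often low over the most open, unmethylated core of a regulatory element. A region list records where enriched DNA stood above background, so a gap between 2 regions says that no region was reported there and not that the base is absent.

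In the authors' deposited table of pooled expression values, the leukocyte gene Ptprc had values of 142 FPKM (MLL-AF9) and 257 FPKM (control), and the myeloid gene Itgam 227 and 399 FPKM, with q = 0.451 and 0.180. The other myeloid markers Csf1r, Mpo and Elane also had no q-value under 0.05 there, and Spi1 was not matched. In the authors' deposited table the MLL-fusion targets Hoxa9 and Meis1 were higher in the group labelled MLL-AF9, at 65.9 and 42.6 FPKM against 0.876 and 1.68 FPKM. Markers of other marrow cells were lower in the MLL-AF9 cells in the authors' deposited table, with q-values from 8.18e-13 to 5.56e-06. The B cell gene Cd79a was at 2.97 against 210 FPKM, the T cell gene Cd3d at 0.660 against 16.7 FPKM, and the red cell gene Car1 at 2.14 against 90.1 FPKM. These are RNA values, and the shares of cell types were not measured. Whether a difference in cell makeup has a part in the split regions was not tested. Median widths were 571 bp over the control list and 441 bp over the 166852 regions of the MLL-AF9 list. The number of reads behind either list is unknown.

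The 3 split control regions of the highest control score were wide regions cut into several pieces. The score is the authors' own value per region, its meaning is not stated, and it is used here only within a list. Positions are those of mouse build mm9, counted from 1. The highest, with a control score of 2926, was chr9:107532059-107535197, a region of 3139 bp that held 4 pieces of 723, 502, 613 and 467 bp. The first and second pieces were 796 bp apart, whereas the other gaps measured 33 and 64 bp, and the pieces together covered 70.3% of the region. The second, chr17:29457126-29460226, had a control score of 2548, and its 3 pieces were separated by gaps of 222 and 520 bp. The third, chr12:100462776-100466038, had a control score of 2449 and 4 pieces, all of which lay wholly inside it, with gaps of 480, 541 and 24 bp. In each of these 3 regions at least 1 gap was wider than 500 bp, which held for few of all gaps.

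The largest number of pieces in a split region was 5, reached by 2 regions. In chr5:138700743-138703308 the 5 pieces lay close together, with gaps of 69, 8, 20 and 39 bp, and covered 94.7% of the control region. In chr13:51845593-51847717 the gaps were 26, 288, 58 and 234 bp and the pieces covered 71.5%. The third region named for its number of pieces, chr1:107926479-107929807, was the widest member at 3329 bp, and its 4 pieces covered 68.6%, with gaps of 2, 155 and 47 bp. The same number of pieces thus came with a nearly continuous cover in one region and with open stretches in the other.

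The widest single gap lay in chr7:139849066-139851764. This control region of 2699 bp had a control score of only 94. Its 2 pieces, of 302 and 416 bp, lay on opposite sides of its centre and left 1489 bp between them. The pieces of chr15:95734025-95736440, a region with a control score of 896, lay close to its ends, 1450 bp apart, and covered 36.8% of it. In chr5:66467790-66469570 the gap was 1018 bp, but the first piece overlapped the control region by only 9 bp of its 815 bp. The pair of pieces with the highest score of the weaker piece lay on chr11:119931716-119932708, a control region of 993 bp. These pieces, of 1404 and 1573 bp with MLL-AF9 scores of 1006 and 1247, were both wider than the control region, and the second overlapped it by 19 bp. In chr10:127014884-127015852 the pieces scored 1048 and 999 and were 373 bp apart, and in chr11:32466454-32467300 they scored 879 and 1187 and were 303 bp apart. In each of these last 3 control regions both pieces were wider than the control region itself. The first piece overlapped 865 of 993 bp and 580 of 969 bp in the first and second of them, and 255 of 847 bp in the third, where the second piece overlapped 289 bp.

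**Figure D1:**
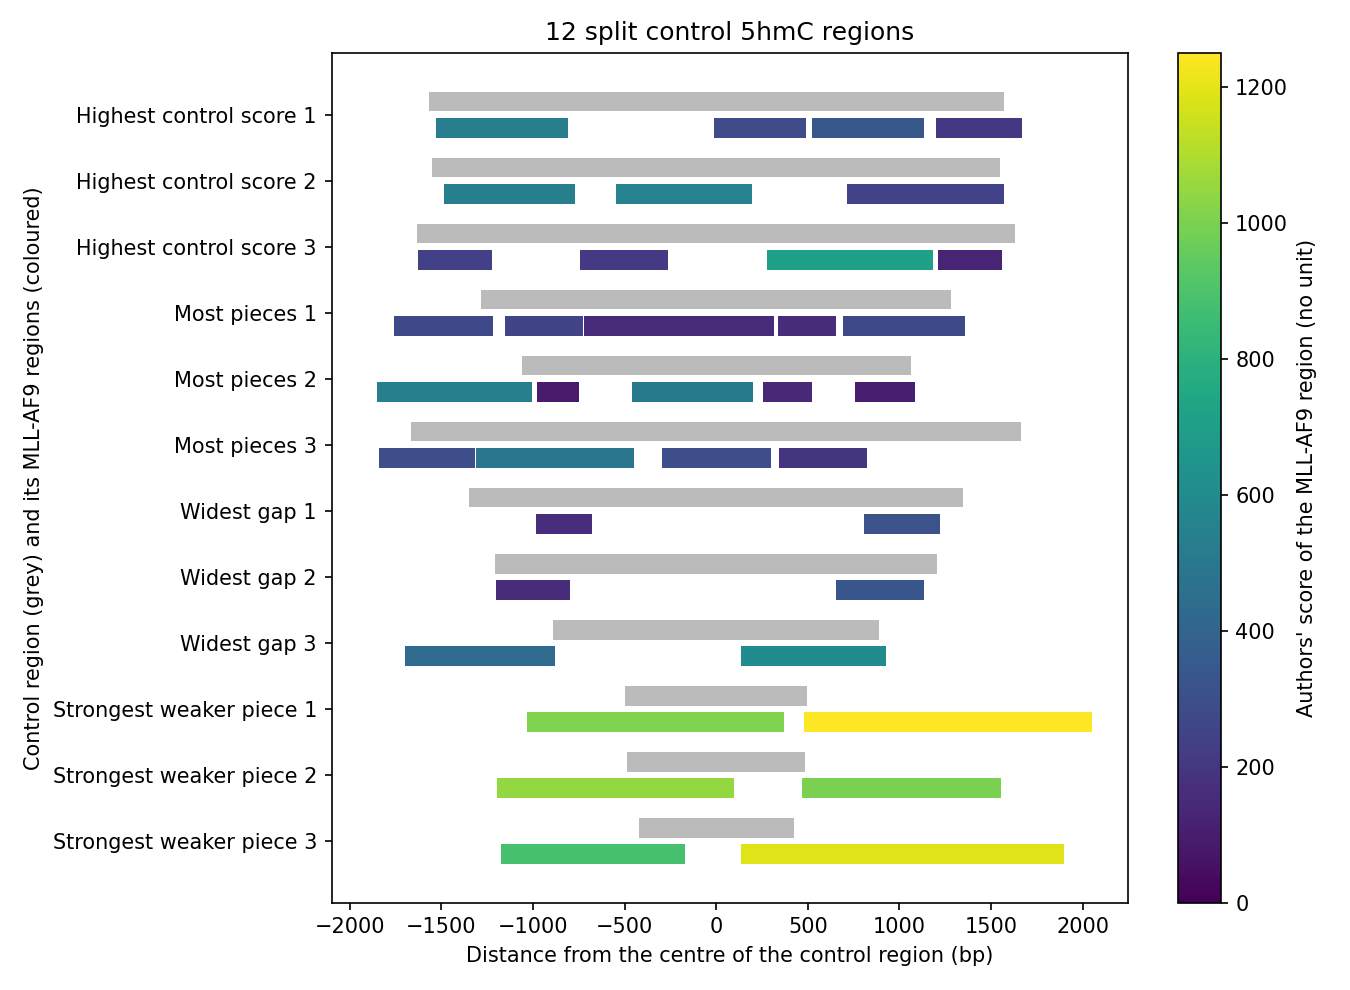
Each grey bar is a split control region and the coloured bars under it are the MLL-AF9 regions that overlap it, drawn to scale as distance in bp from the centre of the control region, with colour giving the authors' score of the MLL-AF9 region. The 3 regions of the highest control score hold 3 or 4 pieces, the 3 with the widest gaps leave 1018 to 1489 bp between 2 pieces, and the last 3 control regions are narrower than the span of their 2 pieces.

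Most split regions held 2 pieces separated by a short gap. Of the 3162 members, 3004 had 2 pieces, 147 had 3, 9 had 4 and 2 had 5. They gave 3333 gaps, with a median of 58 bp (binomial interval of the median 54 to 60), quartiles of 26 and 120 bp, and a range from 2 to 1489 bp. Of the gaps, 44.8% were under 50 bp, 70.2% under 100 bp, 86.2% under 200 bp and 97.5% under 500 bp. The gaps between all neighbouring autosomal MLL-AF9 regions had a median of 1873 bp. A gap inside a control region cannot be wider than that region, so the short gaps follow in part from the rule. Gaps and control scores were weakly related across members, with a Spearman correlation of 0.18 between the control score and the summed gap. Counted per gap, the median control score of the member was 375 for 1493 gaps under 50 bp and 572 for 461 gaps of 200 bp or more. A member with several gaps enters more than 1 time. Gaps and control scores were both larger in wider members, and width was not held fixed here.

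**Figure D2:**
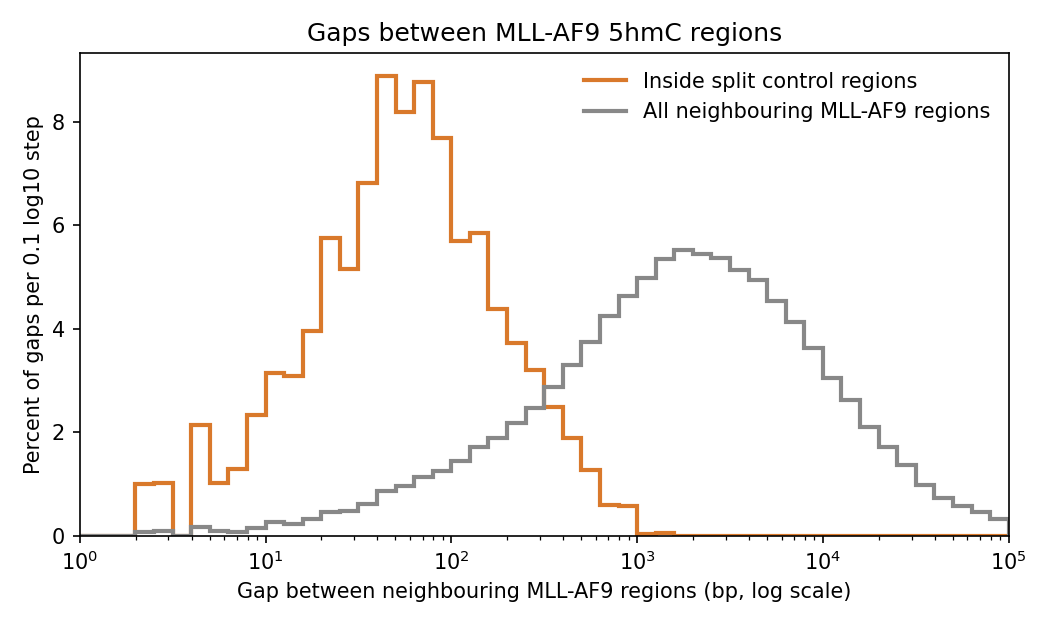
The lines give the percent of gaps in each 0.1 step of log10 gap width, on a log axis in bp, for gaps inside split control regions and for all neighbouring MLL-AF9 regions. The gaps inside split regions have a median of 58 bp, and those between all neighbours a median of 1873 bp.

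At the median, the pieces together covered most of a split control region. The median cover was 86.4% (85.8 to 87.0), with quartiles of 74.9% and 93.5% and a lowest value of 22.8%. Control regions with 1 MLL-AF9 region were covered at a median of 92.0%. The difference varied with width. Under 600 bp the medians were 88.7% for members and 95.1% for control regions with 1 MLL-AF9 region. From 600 to under 900 bp they were 88.7% and 88.8%, from 900 to under 1200 bp 87.1% and 85.9%. At 1200 bp and over they were 78.6% and 85.4%. Of the members, 1225 were covered by 90% or more and 110 by under 50%, and the latter had a larger median width, 1178.5 against 843 bp. Summed over members, 0.602 Mb of 3.18 Mb was not covered, or 18.95%, and for control regions with 1 MLL-AF9 region the uncovered part was 16.9%. In the members, gaps between pieces made up 57.2% of the uncovered length and the ends of the control region the rest. The gaps of a member summed to a median of 6.73% of its width, and in 2052 members they were under 10% of it.

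Every gap lay inside its control region with a piece at each side, which follows from the rule. Members differed in how much of each piece lay inside. In 1686 of 3162 (53.3%, 51.6 to 55.1) at least 2 pieces lay with 50% or more of their own width inside the control region, and these are called cut inside. The class thus depends on the width of the pieces, and the other members also have a gap within the control region. In 1362 members only 1 piece did so and the further piece reached in from beyond an end, and in 114 members no piece did. Of all 6495 overlaps between a piece and a member, 36.5% were of pieces wholly inside, 25.7% of pieces with under 50% of their width inside and 10.3% were under 50 bp long. At both ends of the control region a piece reached beyond it in 1362 members, at 1 end in 1399 and at neither end in 401. From the start of the first piece to the end of the last, the median span was 1216.5 bp against a median control width of 920.5 bp, and in 2351 members the span was wider than the control region.

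Members cut inside were wider and had higher control scores than the others. Their median width was 1127.5 against 720 bp and their median control score 536.5 against 322. Their median gaps, 60 and 54 bp, were alike in size. A wider region can hold more pieces inside it, so the width difference is tied to the class. Control scores were also higher in wider members, with a Spearman correlation of 0.57. Width was not held fixed when the control scores of the classes were compared, so a score difference apart from width was not tested. The gap centre lay in the middle of 3 equal parts of the control region for 73.7% of the gaps of members cut inside, and for 49.7% of all gaps. Along the control region, MLL-AF9 regions covered 77.8% of the members cut inside over the middle 20% of the length, below the 91.8% reached between the middle and the ends. Control regions with 1 MLL-AF9 region were covered most in the middle, at 95.1%, and at 57.2% and 56.9% at the ends. The dip in the middle of the members cut inside follows from where the rule and the class place a gap, and is a description.

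**Figure D3:**
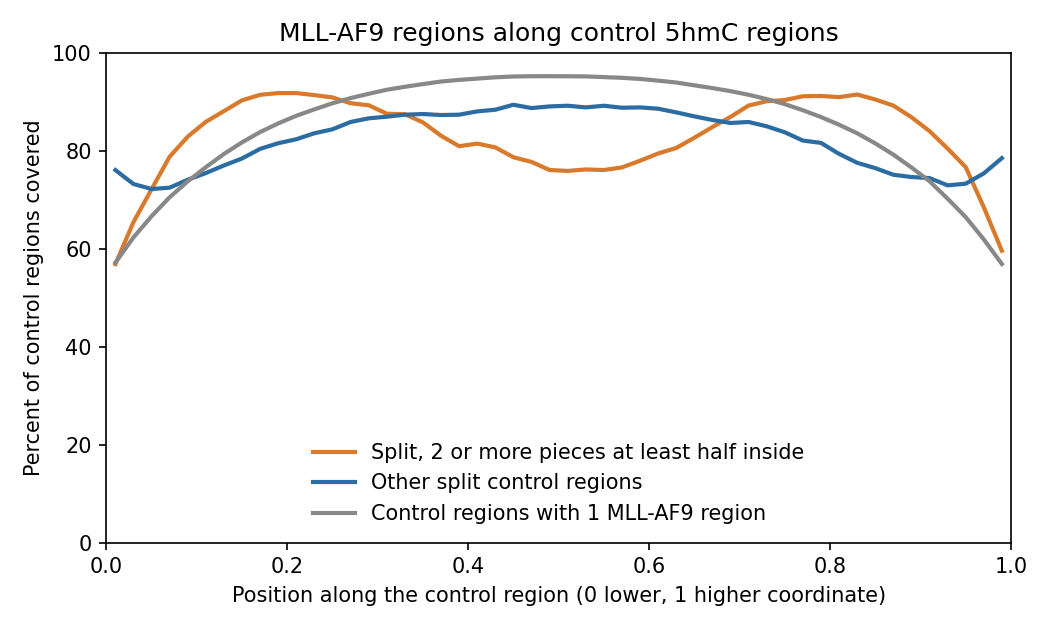
The lines give, along the length of the control region scaled from 0 at its lower to 1 at its higher coordinate, the percent of control regions that an MLL-AF9 region covers, for members cut inside, other members and control regions with 1 MLL-AF9 region. Members cut inside average 77.8% over the middle 20% and peak at 91.8%, whereas control regions with 1 MLL-AF9 region average 95.1% there.

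Split control regions were wide. Their median width of 920.5 bp (904 to 939) was 1.61 times the 570 bp of control regions with 1 MLL-AF9 region, and the 9404 control regions without one had a median of 503 bp. The share of control regions that were split was 1.70% under 600 bp, 6.81% from 600 to under 900 bp, 17.3% from 900 to under 1200 bp and 26.7% at 1200 bp and over. In the last band 35.8% overlapped 2 or more MLL-AF9 regions before the width rule left regions out. A wider region can overlap more regions, so this order is tied to the rule. The class makeup changed along with it: 5.25% of the members under 600 bp were cut inside, against 90.1% of those of 1200 bp and over. The median gap went from 39 to 48, 65 and 85 bp over the same bands.

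The control score of split regions was high as a whole, and close to that of other control regions in the 2 middle width bands. The median control score was 404.5 (393 to 420) for members and 264 for control regions with 1 MLL-AF9 region, and 71.2% and 49.7% of them lay above the median score of the control list. From 600 to under 900 bp the medians were 352 for members and 348 for control regions with 1 MLL-AF9 region, and from 900 to under 1200 bp they were 504.5 and 505. In the outer bands members stood somewhat higher, at 241 against 219 under 600 bp and at 754 against 707 from 1200 bp on. Among control regions of 900 to under 1200 bp, those above the median score of the band were split in 17.3% and those at or below it in 17.2%. Under 600 bp these shares were 2.11% (1.89 to 2.37) and 1.29% (1.12 to 1.49). Across members, control width and control score had a Spearman correlation of 0.57 (n = 3162 regions of 1 library).

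**Figure D4:**
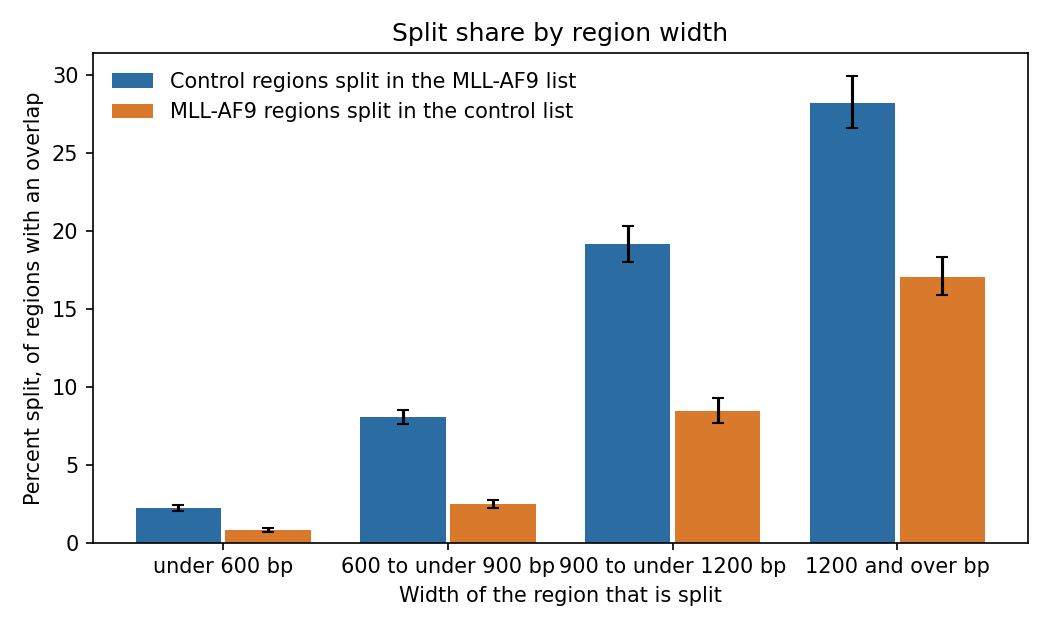
The bars give the percent of regions that are split, among regions of the same list with at least 1 overlap, by the width of the region, with 95% Wilson intervals of counting error. For control regions the share goes from 2.20% under 600 bp to 28.3% at 1200 bp and over, and for MLL-AF9 regions under the mirrored rule from 0.796% to 17.1%.

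The pieces of split regions had scores near the middle of the MLL-AF9 list. The 6438 separate MLL-AF9 regions that served as pieces had a median MLL-AF9 score of 236 and a median width of 510 bp. MLL-AF9 regions on control regions with a single overlap scored 266 at the median and were 586 bp wide, and those without a control region scored 202 and were 411 bp wide. In the 3004 members with 2 pieces the stronger piece had a median score of 313 and the weaker one 177, and in 39.0% the stronger score was at least 2 times the weaker. At gaps under 50 bp this share was 41.7% (39.1 to 44.4) in members and 40.04% (38.8 to 41.3) among all neighbouring MLL-AF9 regions, and from 50 to under 200 bp it was 37.0% and 38.6%. The inequality of the pieces was thus close to that of neighbouring MLL-AF9 regions in general. The set of all neighbours includes the members' own pairs, 1354 of 6273 under 50 bp and 1249 of 14038 from 50 to under 200 bp, so part of the likeness is built in. Both pieces lay above the median score of the autosomal MLL-AF9 list in 1009 of these members (33.6%), and neither did in 546 (18.2%). The wider piece had the higher score in 75.4%. The larger of the 2 overlaps held a median of 66.8% of the covered length. Between the scores of the 2 pieces the Spearman correlation was 0.03, and between the control score and the highest piece score it was 0.16. Both describe regions of 1 library per group that share a locus.

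Members with 3 or more pieces were the widest. The 158 of them had a median width of 1547.5 bp and a median control score of 700, against 899 bp and 396.5 for members with 2 pieces. Their median gap was 67 bp against 56.5 bp, and their median cover 83.9% against 86.5%. Some MLL-AF9 regions served several control regions: 604 of the 6438 pieces (9.38%) also overlapped another control region, and 57 were a piece of 2 or more members.

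The reverse arrangement was also present. Under the same rule with the lists exchanged, 1488 of 166014 autosomal MLL-AF9 regions were split, or 0.896%. Among regions that overlapped the other list at all, the split share was 7.58% (7.33 to 7.83) for control and 3.41% (3.25 to 3.59) for MLL-AF9 regions, and control regions had the larger share in each of 4 width bands. The gaps in the split MLL-AF9 regions also had a median of 58 bp, and their median cover was 86.9%. The order of the 2 directions was the opposite with an MLL-AF9 list that was shorter and held high scores only. With the 51145 top-scoring autosomal MLL-AF9 regions, as many as in the control list, 557 control regions (1.09% of the list) and 1116 MLL-AF9 regions (2.18% of the list) were split. Of the regions with an overlap these were 2.53% and 5.23%. List length and lowest score change together here and cannot be told apart. This alternative was chosen after seeing the data.

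Seen from the gaps, a region of the other list more often spanned a gap of the control list than one of the MLL-AF9 list. Of 6273 gaps under 50 bp between neighbouring MLL-AF9 regions, 25.8% (24.7 to 26.9) were spanned by 1 control region. Of 1539 gaps of that size between control regions, 52.9% (50.4 to 55.4) were spanned by 1 MLL-AF9 region. From 50 to under 100 bp the shares were 16.1% and 32.6%, and from 200 to under 500 bp they were 2.42% and 5.99%. These counts hold all regions that overlap 2 or more of the other list, 3436 of the autosomal control regions (6.72%), before the width rule. The MLL-AF9 list also covers more of the genome than the control list, which was not adjusted for here.

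**Figure D5:**
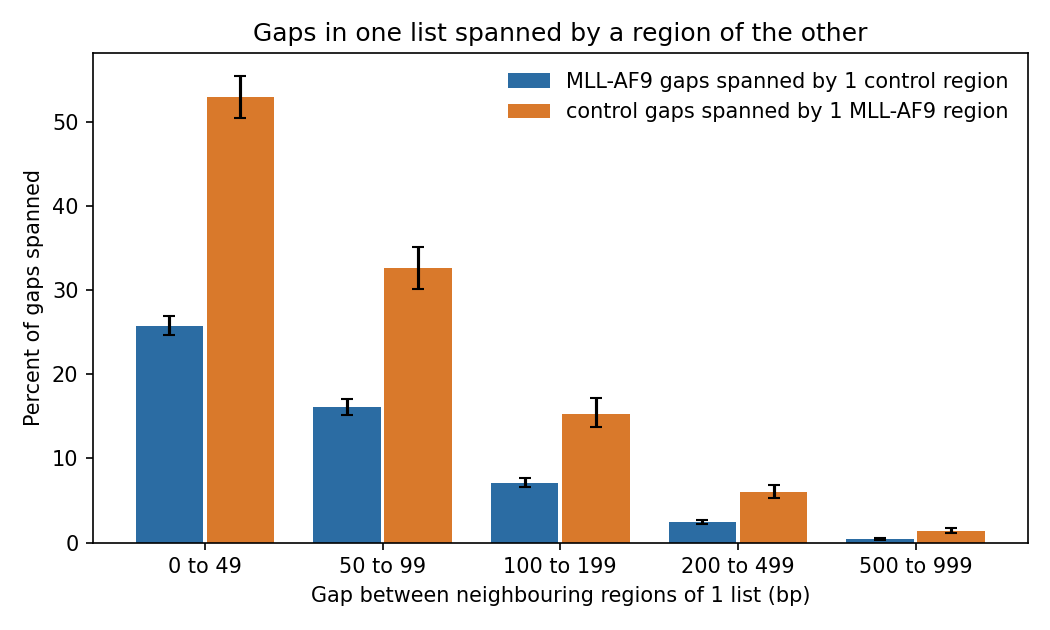
The bars give the percent of gaps between neighbouring regions of 1 list that a single region of the other list spans, by gap width in bp, with 95% Wilson intervals of counting error. Under 50 bp the share is 25.8% for MLL-AF9 gaps and 52.9% for control gaps, and it is lower with each wider class in both directions.

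Split regions were found on all 19 autosomes. The share of control regions that were split had a median of 6.37% over the autosomes, with a low of 4.59% on chromosome 3 (3.80 to 5.53) and a high of 7.62% on chromosome 8 (6.69 to 8.67). The interval lay below the share of all autosomes on 2 chromosomes, which were 1 and 3, and above it on chromosome 8 only. Chromosomes 1 and 3 also had low median widths of control regions, 543 and 538 bp. The median gap stayed between 47 and 73 bp and the median cover between 84.0% and 88.7% on every autosome.

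Members lay in stretches dense in control regions. The nearest other control region was at a median distance of 831.5 bp (780 to 888) from a member and of 1614 bp (1586 to 1660) from a control region with 1 MLL-AF9 region, and 54.3% and 40.2% had another within 1000 bp. Of the 4 width bands the difference was largest for the narrowest: under 600 bp the medians were 1071.5 and 2205.5 bp, and at 1200 bp and over they were 653 and 613 bp. The nearest other member lay at a median of 31316.5 bp. For 261 members (8.25%, 7.34 to 9.26) the next control region was also a member, beside a share of members of 6.18% among all autosomal control regions. Further MLL-AF9 regions within 5000 bp, pieces aside, numbered a median of 4 for members and 4 for control regions with 1 MLL-AF9 region. At least 1 such further region was present for 96.6% (95.9 to 97.2) of members and 92.7% (92.4 to 92.9) of control regions with 1 MLL-AF9 region. The genes and bases under the regions were not analysed here, since the reference at hand is of another build.

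Some members and other regions lay close to the limits of the rule. In 667 members (21.1%) the smallest overlap was under 50 bp, and in 18 it was 1 bp. Conversely, 1411 control regions with 1 MLL-AF9 region (3.68%) had another within 50 bp of an end. The width rule left out 274 regions with 2 or more pieces, of a median width of 1907.5 bp and a median control score of 903.5. The nearest left out were chr13:37719533-37720732, 1200 bp wide with a widest piece of 2364 bp, and chr14:61358388-61360355, 1968 bp wide with a widest piece of 1201 bp. Just inside the limit were chr11:78159625-78162610, 2986 bp wide with a widest piece of 1197 bp, and chr9:103130677-103131874, 1198 bp wide with a widest piece of 1261 bp. Members next to the limit in control width ranged from 60.4% cover, for chr15:99329856-99331055 with a gap of 47 bp, to 97.2%, for chr2:18820635-18821833 with a gap of 33 bp. The other 2, chr10:84240066-84241264 and chr11:24043819-24045019, had 2 pieces each, with gaps of 201 and 41 bp.

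The number of split regions rests on what counts as separate. With MLL-AF9 regions closer than 50 bp joined first, an alternative chosen after seeing the data, 1736 control regions were split, and with those closer than 500 bp joined, 54 were. With only MLL-AF9 regions at or above the median score of their list, 1125 were split.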

How the data were processed

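The 5hmC region lists compared come from 1 library per group. Tools named in the submitters' processing notes are MACS 1.4, Bowtie 0.17.2 and CASAVA 1.8.2, along with Cufflinks 1.3.0 and TopHat 1.4.1, with build mm9. How regions were called is not given in the sources used here. Enrichment was by selective chemical labelling per the series' design text, although the labels list an antibody to 5-methylcytidine. The deposited lists give each region's start, end and a score made by the authors, of unstated meaning. The deposited expression table holds 1 value per group, taken as FPKM, and a p-value and q-value of the authors' own comparison; these were only read for markers, with no test, and 1 marker is not reported here.

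Overlaps were computed in Python 3.11.15 with pandas 2.3.3, scipy 1.17.1 and numpy 2.4.6, and the overlaps counted per region were the same with bedtools 2.31.1. On simulated lists of 6000 regions, 3580 of 3580 planted splits and 0 false ones were found. All planted gaps were under 50 bp and no planted piece touched 2 control regions, so wider gaps and shared pieces were not tried. Intervals are Wilson intervals of shares or order-statistic intervals of medians, at 95%, for counting error only; neighbouring regions are not independent. Plots used matplotlib 3.10.9. Named regions, chromosome 18 aside, were the 3 of highest control score, most pieces, widest gap and highest score of the weakest piece, and 2 at each side of the width limit. Regions nearest the limit by widest piece were added after values were seen. Members, lists and rules were chosen with earlier results of these data known. Planned gene annotation and base composition were not run, because the reference at hand is of build GRCm38.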

Additional observations from a re-analysis of the deposited data

How the results depend on the processing

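Of the 10 alternatives tried, 2 were chosen after seeing the data: joining MLL-AF9 regions closer than 50 bp, and equal list lengths. The 4 values set against them are the number of split regions (3162), their median cover (86.4%), the median gap (58 bp) and the ratio of median widths (1.61). The number has no interval of its own and stayed within 1.5 times under 5 alternatives, where it went from 2257 to 3436. With 50% of an MLL-AF9 region required inside, 1693 regions were split, with a cover of 85.4% and a width ratio of 1.92; the width rule then sees fewer pieces, so this exceeds the 1686 cut inside. Joining regions closer than 500 bp gave 54 regions, 47.9%, 606.5 bp and 2.51, and joining those closer than 50 bp gave 1736, 80.9%, 107 bp and 1.72. Joining removes the short gaps by construction. MLL-AF9 regions at or above their median score gave 1125 regions, 68 bp and 1.66. Control regions at or above their median score gave 85.3%, 63 bp and 1.45. Lists of equal length gave 557 regions, 87.0% and 69 bp. The width ratio was 1.74 with at least 50 bp of overlap, 1.69 with wide regions kept and 1.55 with a limit of 1000 bp. The cause of these moves was otherwise not tested. All other values of the cover, the gap and the width ratio lay within the interval of the main value. No paired analysis was possible because each group has 1 5hmC library and no test was made. Depth per library is unknown, so a gap may be a stretch with too few reads for a call.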

Other observations

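In members with 2 pieces close together, the higher score lay more often at the lower coordinate. Among members with 2 pieces of unequal score, the piece at the lower coordinate had the higher score in 1622 of 2992 (54.2%, 52.4 to 56.0), with a range over the autosomes from 48.4% to 60.5% and a share above 50% on 14 of 19. For gaps under 50 bp the share was 57.9% (55.2 to 60.5), for gaps of 50 to under 200 bp it was 51.1% (48.3 to 53.9), and for wider gaps 51.4% (46.5 to 56.2). Among all neighbouring MLL-AF9 regions less than 50 bp apart it was 54.7% (53.4 to 55.9), and among such control regions 52.7% (50.2 to 55.2). The wider piece lay at the lower coordinate in 51.7% (49.9 to 53.5) of members with 2 pieces, and in the mirrored set the higher score did in 52.2% (49.6 to 54.8), so both intervals include 50%. Among neighbours from 200 to under 1000 bp apart, the higher score lay at the lower coordinate in 49.8% in both lists. From 1000 to under 5000 bp it did in 49.4% (49.0 to 49.8) in the MLL-AF9 list and 49.1% (48.3 to 49.9) in the control list. These last 2 intervals lay below 50%. The strand given is the same for every region in both lists. The pattern was noticed in these data, was not tested further, and rests on 1 library per group.

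On the sex chromosomes, which the rule leaves out, the control list held 141 regions, of which 94 overlapped an MLL-AF9 region and 3 (2.13%, 0.726 to 6.07) met the rest of the rule.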
